A study of Mus musculus with 4 samples.

Results

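The 10 genes described here encode the thioredoxin, glutathione and antioxidant proteins that keep cysteines reduced and clear peroxides, superoxide and haem. They were chosen by name (Txn1, Txnip, Txnrd1, Gpx1, Gpx4, Prdx1, Sod1, Sod2, Gclm and Hmox1), and all 10 were found among the 16142 genes of the expression table. Polyadenylated RNA was sequenced from CD4+ T cells of the spleen, with 2 libraries from WT B6 mice and 2 from Cd4CreERT2 LSL-R111A fl/fl mice. R111A is a form of the RNA-decay protein Regnase-1 (gene Zc3h12a) with a changed MALT1 cleavage site. It was knocked in at Rosa26 behind the CAG promoter and a STOP cassette, together with EGFP, so that Cre induced by tamoxifen (75 mg/kg for 5 days) switches it on in Cd4-expressing cells, which the study sorted by GFP. The WT cells carried neither Cre nor the transgene, so the allele, Cre and GFP gating cannot be told apart as sources of a difference. The study gave tamoxifen to WT mice too for its sorted T cell assays, and the labels of these libraries can be read the same way. They can also be read as naming it for R111A only. In that case tamoxifen, too, cannot be told apart from the allele as a source. Sorted cells of both groups spent 12 h on antibodies to CD3 (5 µg/mL) and CD28 (1 µg/mL), and unstimulated cells were not analysed here. The study states in general that its mice were young adults of both sexes. The labels give no age, and the sex behind each library is not known here. Nothing states that the libraries came from separate animals, so p-values measure only the spread between these samples, which may be technical.

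Thioredoxin and glutathione are the main thiol systems of the cell, and both draw their electrons from NADPH. Thioredoxin reduces disulfides in enzymes and in peroxiredoxins, glutathione serves the peroxidases and transferases, and superoxide dismutases turn superoxide into the hydrogen peroxide that these systems remove. T cells make more reactive oxygen when their antigen receptor is engaged, and the transcription factor NRF2, which KEAP1 holds at a low level in unstressed cells, drives many of these genes through the antioxidant response element.

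The values are FPKM, reads per length of gene and size of library, and they do not tell how many reads a value rests on. Over all genes the FPKM of WT replicates 1 and 2 added up to 801475 and 836143, and those of the R111A replicates to 1053551 and 1012215. From single-read steps in low values, WT replicate 1 was estimated to be 1.00, 1.06 and 1.19 times as deep as WT replicate 2 and R111A replicates 1 and 2, in that order. Differences were tested with limma on log2(FPKM + 1), a scale that understates the change of low genes, for 9831 genes whose mean reached 1 FPKM, all 10 of these among them. Permuting 2 libraries against 2 has 0.333 as its smallest two-sided p, and the smaller values below come from the variance model that limma shares between genes. The median log2 fold change of all genes was -0.12, and it moved to -0.42 when each library was rescaled to the same sum (TPM). For the 10 genes each change is therefore also given relative to the median of all genes. All 10 had a mean above 1 FPKM in each group.

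Zc3h12a, the gene of the transgene, stood at 17.0 and 15.7 FPKM in the WT libraries against 196 and 131 FPKM with R111A, as the labels require. Its log2 fold change was 3.22 (SE 0.19, adjusted p = 9.2e-06 from limma). The T cell markers in the table, 7 of 8 listed, summed to 1542 and 1543 FPKM in WT and 1205 and 1152 FPKM in R111A, with Cd3g the most abundant. Of these 7, 4 were lower and 1 higher past 0.05, or 6 lower and 0 higher in TPM. Cd4 itself was at 158 and 131 FPKM in WT and 70.7 and 51.4 FPKM in R111A. Cd8a stayed at or under 0.20 FPKM in each library.

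Of the 10 antioxidant genes, Txnip and Hmox1 were higher in R111A and Txn1, Gpx1, Sod2 and Gclm were lower, each past an adjusted p of 0.05. That is 6 of 10, beside 53.3% of all genes tested, with 2 higher (21.2% of all genes) and 4 lower (32.1% of all genes). Past a 2-fold change as well were Txnip, higher (8.52% of all genes), and Gpx1, lower (8.34% of all genes), together 2 of 10 against 16.9%. The FPKM of the groups did not overlap for 8 of the 10, which was so for 78.3% of all genes. The counts are thus close to those of the whole table, and it is the individual genes that differ in direction and size. The median log2 fold change of the 10 was -0.19. After rescaling to TPM, Txnip and Hmox1 were still higher and the other 8 were all lower past 0.05, and the split over all genes went from 2088 higher and 3152 lower to 1335 and 5096. Leaving out WT replicate 1 gave 1 higher and 3 lower of the 10 genes, with 1413 higher and 1957 lower of all. Leaving out WT replicate 2 gave 2 higher and 2 lower, with 1441 higher and 1937 lower of all.

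The levels of the 10 genes span a wide range of FPKM, a unit that is per length and so can be compared between genes. In WT the order from the highest was Sod1, Prdx1, Txn1, Gpx1, Gpx4, Txnrd1, Sod2, Gclm, Txnip and Hmox1, and each gene stood above the next in both libraries. In R111A, Txnip moved up from ninth to seventh place. It lay below Txnrd1 in replicate 1 (74.0 against 78.1 FPKM) and in replicate 2 (63.4 against 68.8 FPKM), with ranges that overlapped, and Gclm stood above Sod2. Together the 10 genes summed to 2310 and 2471 FPKM in WT and 1964 and 2005 FPKM in R111A. They took 0.288% and 0.296% of the summed FPKM in WT and 0.186% and 0.198% in R111A. The share fell further than the sum because the FPKM of all genes added up to more in R111A.

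**Figure D1:**
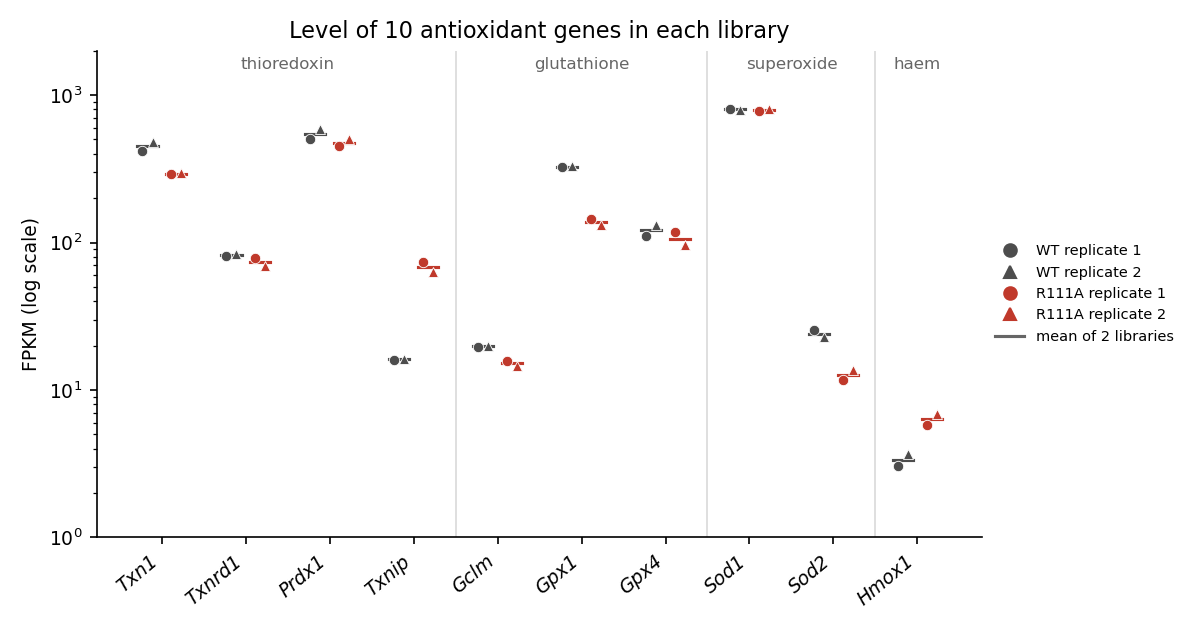
FPKM of the 10 genes in each library on a log axis, ordered by role, with circles and triangles for replicates 1 and 2 and a bar for the mean of the 2 libraries. Txnip rises from 16.0 and 16.2 FPKM in WT to 74.0 and 63.4 FPKM in R111A, Gpx1 falls from 327 and 328 to 144 and 131 FPKM, and Sod1 stays between 777 and 803 FPKM in 3 libraries and at 810.2 FPKM in R111A replicate 2.

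Promoters of 300 bases (250 before to 50 after the annotated start, RefSeq, GRCm38.p6) were read for 9 of the 10 genes, 14 starts in all, and Hmox1 had no entry. They were searched on both strands for TGACNNNGC, the core of the antioxidant response element, which 12.4% of 32851 promoters hold, and for CACGTG, an E box, which 7.15% hold. Of the 10184 promoters of tested genes, 14.3% hold the first and 10.5% the second. The response element core was found at 4 of the 14 starts, in Txnrd1, Prdx1, Gclm and Sod1, and CACGTG at 0. These 4 are printed because Txnrd1, Prdx1 and Gclm are known NRF2 targets and share the letters with Srxn1, a further NRF2 target and the most changed gene of the thioredoxin list. Capitals mark the core as it reads on the strand of the gene. It begins 92 bases before the start in Txnrd1 (the middle of its 3 starts, chr10:82858956-82859255, plus strand), 133 before in Prdx1 (chr4:116685349-116685648, plus strand), 134 before in Gclm (chr3:122245307-122245606, plus strand) and 56 before in Sod1 (chr16:90220512-90220811, plus strand). In Srxn1 (chr2:152105274-152105573, plus strand) it begins at base 29 after the start. The start used for Gclm is not the first base of the gene span given below, but lies downstream of it. The windows of Nqo1 and Epha2, further NRF2 targets that rose, hold 0 matches, and that of Arrdc4 holds 1. A match describes the letters only.
Txnrd1: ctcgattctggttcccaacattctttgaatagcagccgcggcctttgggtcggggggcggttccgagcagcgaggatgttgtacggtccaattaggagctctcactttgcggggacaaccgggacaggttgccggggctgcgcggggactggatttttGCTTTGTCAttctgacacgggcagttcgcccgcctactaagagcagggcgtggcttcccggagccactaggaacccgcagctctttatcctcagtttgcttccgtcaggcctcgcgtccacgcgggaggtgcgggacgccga
Prdx1: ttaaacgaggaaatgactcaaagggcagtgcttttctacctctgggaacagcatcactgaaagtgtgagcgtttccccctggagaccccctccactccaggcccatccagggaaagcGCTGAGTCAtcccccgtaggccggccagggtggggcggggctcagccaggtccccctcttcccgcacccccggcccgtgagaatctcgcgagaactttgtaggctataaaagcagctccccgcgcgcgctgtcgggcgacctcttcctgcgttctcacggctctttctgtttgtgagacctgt
Gclm: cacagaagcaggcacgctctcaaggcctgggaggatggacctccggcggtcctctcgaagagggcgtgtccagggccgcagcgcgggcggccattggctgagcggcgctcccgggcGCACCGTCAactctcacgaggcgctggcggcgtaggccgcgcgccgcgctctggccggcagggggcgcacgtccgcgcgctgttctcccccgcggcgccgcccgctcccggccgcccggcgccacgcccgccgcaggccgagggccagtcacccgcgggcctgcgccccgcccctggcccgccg
Sod1: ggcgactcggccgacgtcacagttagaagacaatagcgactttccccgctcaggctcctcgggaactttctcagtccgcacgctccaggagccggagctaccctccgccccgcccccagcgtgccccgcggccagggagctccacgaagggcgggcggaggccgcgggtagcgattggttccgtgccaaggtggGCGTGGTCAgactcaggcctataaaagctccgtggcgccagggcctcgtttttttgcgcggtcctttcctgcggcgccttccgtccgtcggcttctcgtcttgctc
Srxn1: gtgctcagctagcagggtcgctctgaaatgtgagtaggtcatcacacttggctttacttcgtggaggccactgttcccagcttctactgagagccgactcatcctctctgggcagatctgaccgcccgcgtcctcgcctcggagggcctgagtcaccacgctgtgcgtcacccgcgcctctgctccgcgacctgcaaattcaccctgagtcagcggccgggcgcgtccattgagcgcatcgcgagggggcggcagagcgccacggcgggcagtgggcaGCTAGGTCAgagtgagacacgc

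In the thioredoxin branch, RNA of the carrier Txn1 fell, while the RNAs of its reductase and main client did not pass the test. Txn1 (gene ID 22166, chr4:57943373-57956411), cytosolic thioredoxin, stood at 418 and 479 FPKM in the WT libraries against 291 and 297 FPKM with R111A. Both R111A libraries lay below both WT libraries, and the WT replicates differed more from each other than the R111A replicates did. The log2 fold change was -0.61 (95% interval -0.90 to -0.31, SE 0.13, adjusted p = 0.0042), or -0.49 relative to all genes. Without WT replicate 2 the adjusted p was 0.087, the highest of the alternatives, which ranged from 4.5e-05. Lower Txn1 RNA from fewer cells of a kind that makes much of it and from less RNA in each cell cannot be told apart in bulk samples.

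Txnrd1 (gene ID 50493, chr10:82833951-82897724), the selenoprotein that returns cytosolic thioredoxin to its reduced form, stood at 80.8 and 83.3 FPKM in the WT libraries against 78.1 and 68.8 FPKM with R111A. The groups did not overlap, but R111A replicate 1 came within a few FPKM of the WT libraries. The log2 fold change was -0.16 (95% interval -0.46 to 0.14, adjusted p = 0.32), -0.04 relative to all genes, and it was 0.09 after quantile normalization. Without R111A replicate 1 it was -0.25 and passed (adjusted p = 0.046), within a range of 0.0072 to 0.97 over the alternatives. Prdx1 (gene ID 18477, chr4:116685599-116700000), the abundant cytosolic peroxiredoxin that thioredoxin recharges, stood at 507 and 589 FPKM in the WT libraries against 450.0 and 504 FPKM with R111A. The higher R111A library stood just below the lower WT library. The log2 fold change of -0.20 did not pass (95% interval -0.51 to 0.11, adjusted p = 0.24), and it was -0.08 relative to all genes.

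The wider list of the thioredoxin system had 24 genes tested, these 3 and Txnip included, of which 10 were lower and 3 higher past an adjusted p of 0.05, with a median log2 fold change of -0.28. The counts of the main fit for this list and those below are to be read beside the shares of all genes, 21.2% higher and 32.1% lower. These shares do not hold for the alternatives. Counts in TPM belong beside 1335 higher and 5096 lower of the 9831 genes, so a larger number of lower genes in TPM is partly a shift of the whole table. The mitochondrial pair moved with Txn1: Txn2, mitochondrial thioredoxin, stood at 340 and 339 FPKM in the WT libraries against 263 and 254 FPKM with R111A (log2 fold change -0.39, adjusted p = 0.022), and Txnrd2, its reductase, had a log2 fold change of -0.66 (adjusted p = 0.0038). Against the direction of the list stood Srxn1, sulfiredoxin, which repairs over-oxidised peroxiredoxins and whose promoter is printed above. It had a mean of 1.73 FPKM in WT (SD 0.37) against 26.2 and 26.0 FPKM with R111A, a log2 fold change of 3.31 (SE 0.15, adjusted p = 3.5e-06) and 3.43 relative to all genes. Prdx1, its best known substrate, did not pass in FPKM and was lower in TPM (-0.53, adjusted p = 0.0038 from limma). Of the other peroxiredoxins, Prdx2, Prdx3 and Prdx4 were lower past 0.05 (log2 fold changes -0.94, -0.98 and -0.60), Prdx4 not without WT replicate 2. Prdx5 and Prdx6 did not pass (0.32 and -0.29). Txn2 lost its call with median-of-ratios factors, quantile normalization and the length and GC correction, and without either WT library (adjusted p from 0.00029 to 0.23). Without WT replicate 1 the list had 7 lower and 2 higher genes and without WT replicate 2 it had 5 and 2, in neither case with Txnrd2 among those called (adjusted p from 0.00014 to 0.073). In TPM it had 15 lower and 2 higher, while the higher genes were 5 with quantile normalization and without R111A replicate 1, and 7 against 9 lower with the length and GC correction.

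Txnip changed the most of the 10 genes. It encodes an arrestin-like protein that binds reduced thioredoxin, restrains glucose uptake and marks resting cells, and its transcription is known to be driven by MondoA with MLX through a carbohydrate response element. Txnip (gene ID 56338, chr3:96557957-96561857) stood at 16.0 and 16.2 FPKM in the WT libraries against 74.0 and 63.4 FPKM with R111A. Every R111A value was far above both WT values, and the spread was wider in R111A. The mean in R111A was 4.27 times that in WT, with a log2 fold change of 2.02 (95% interval 1.71 to 2.34, SE 0.14, adjusted p = 1.5e-05), or 2.14 relative to all genes and 2.12 relative to them in TPM. Of all genes tested, 171 had a higher log2 fold change. It kept its direction and call under each of the 15 alternatives, from 1.70 in TPM to 2.21.

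Because Txn1 fell and Txnip rose, the balance of their RNAs shifted. Txn1 FPKM was 26.1 and 29.6 times Txnip FPKM in WT and 3.93 and 4.68 times in R111A. This ratio lies within a library, so it does not move with the scaling of the whole library.

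The promoter of Txnip (chr3:96557707-96558006, plus strand) is printed for its carbohydrate response element, a pair of E-box-like sites 5 bases apart. This motif, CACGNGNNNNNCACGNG, was added to the search after the values were seen. It is held by 16 of 32851 promoters (0.0487%) and by 0.0884% of the 10184 promoters of tested genes. Of the 14 starts of the 10 genes only that of Txnip holds it, where it begins 85 bases before the start. Since Txnip was already known for such an element, neither this match nor the rarity of the motif counts as evidence. Capitals mark the match.
Txnip: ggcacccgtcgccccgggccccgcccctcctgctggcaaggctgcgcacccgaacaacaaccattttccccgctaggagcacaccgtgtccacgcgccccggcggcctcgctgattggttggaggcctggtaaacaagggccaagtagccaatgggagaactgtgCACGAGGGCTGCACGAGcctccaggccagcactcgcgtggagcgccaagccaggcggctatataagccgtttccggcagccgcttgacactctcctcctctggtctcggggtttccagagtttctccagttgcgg
Arrdc4, the closest relative of Txnip and another known MondoA target, does not hold these letters in its window, and holds CACGTG 193 and the response element core 28 bases before its start. It stood at 1.92 and 1.63 FPKM in the WT libraries against 1.56 and 1.62 FPKM with R111A, where the groups nearly touched (log2 fold change -0.10, adjusted p = 0.58). Mlx fell, from 40.7 and 40.3 FPKM to 23.5 and 23.0 FPKM (log2 fold change -0.78, adjusted p = 0.0012), and Mlxip, which encodes MondoA, did not pass (log2 fold change -0.16, adjusted p = 0.37). Of the 9 genes tested in the list of the arrestin family, MondoA, MLX and glucose transporters, Txnip was the 1 higher and Mlx the 1 lower past 0.05, with a median of -0.10. In TPM 4 of them were lower and 1 higher, without R111A replicate 1 there were 3 and 2, and without R111A replicate 2 there were 2 and 2. The length and GC correction gave 3 higher and 1 lower with a median of 0.05, and the range over the alternatives was 1 to 3 higher and 1 to 4 lower.

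Over the 4 libraries, the genes with the pattern most like that of Txnip were Btg2, Smpdl3a and Sik1, at Euclidean distances of 0.064, 0.080 and 0.093 on centred log2(FPKM + 1). Btg2, an antiproliferative gene of resting lymphocytes, stood at 23.4 and 24.3 FPKM in the WT libraries against 110.7 and 97.0 FPKM with R111A. Markers of resting naive T cells were mostly higher as well. Of 8 listed, 6 were higher and 0 lower past 0.05, and in TPM 5 were higher and Foxp1 lower (-0.32 in FPKM with an adjusted p of 0.065, -0.65 in TPM with 0.0017). They summed to 667 and 616 FPKM in WT and 1310 and 992 FPKM in R111A, with Ccr7 the most abundant and none of them at 0 in all 4 libraries. Il7r stood at 4.58 and 3.77 FPKM in the WT libraries against 43.6 and 37.5 FPKM with R111A. The Treg marker Foxp3 went the other way, from 11.3 and 8.78 FPKM to 2.86 and 1.86 FPKM, while Il2ra and Ikzf2 did not pass in FPKM and were lower in TPM (adjusted p = 0.011 and 0.021). The Treg list summed to 156, 149, 133 and 135 FPKM. The part of these cell states in the change of Txnip was not tested.

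**Figure D2:**
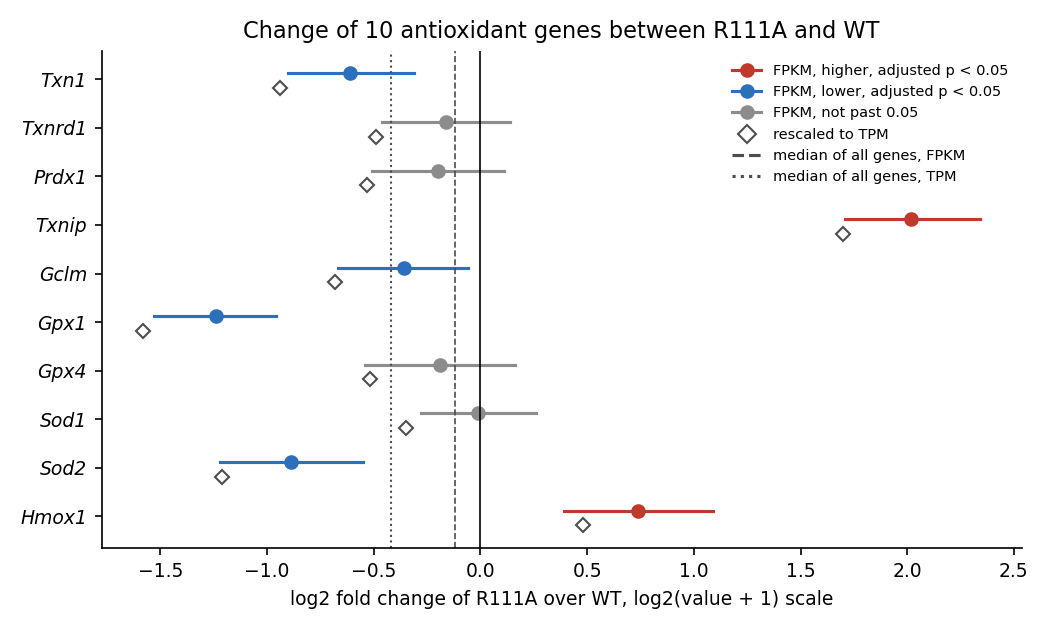
Log2 fold change of R111A over WT for the 10 genes on the log2(value + 1) scale, with points and 95% intervals for FPKM, diamonds for TPM and vertical lines at the median of all genes on each scale. Txnip stands at 2.02 and Gpx1 at -1.24 in FPKM, and the diamonds sit to the left of the points along with the median, which moves from -0.12 to -0.42.

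Among the glutathione genes, the peroxidase Gpx1 fell by over 2-fold, while the synthesis subunit Gclm moved little and Gpx4 overlapped between the groups. Gpx1 (gene ID 14775, chr9:108339080-108340342), the selenium-dependent enzyme that reduces soluble hydrogen peroxide with glutathione, stood at 327 and 328 FPKM in the WT libraries against 144 and 131 FPKM with R111A. The WT libraries were nearly equal, and both R111A libraries lay far below them. WT had 2.38 times the mean of R111A, with a log2 fold change of -1.24 (95% interval -1.53 to -0.96, SE 0.12, adjusted p = 8.4e-05), or -1.13 relative to all genes. Of all genes tested, 441 had a lower log2 fold change. Its call and direction held under each of the 15 alternatives, from -1.58 in TPM to -1.02.

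Gpx4 (gene ID 625249, chr10:80047166-80056439), the related selenoprotein that reduces lipid peroxides in membranes and so guards against ferroptosis, stood at 110.8 and 132 FPKM in the WT libraries against 117 and 95.9 FPKM with R111A. R111A replicate 1 lay between the WT libraries, so the groups overlapped. The log2 fold change was -0.19 (95% interval -0.54 to 0.16, adjusted p = 0.32), -0.07 relative to all genes, and 0.05 after quantile normalization. Gpx1 FPKM was 2.95 and 2.49 times Gpx4 FPKM in WT and 1.23 and 1.37 times in R111A.

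Gclm (gene ID 14630, chr3:122245487-122267215), the modifier subunit of the enzyme that makes the glutathione precursor, stood at 19.6 and 20.0 FPKM in the WT libraries against 15.7 and 14.6 FPKM with R111A. The groups did not overlap and each was tight. The log2 fold change of -0.36 passed narrowly (95% interval -0.67 to -0.06, SE 0.13, adjusted p = 0.046) and was -0.25 relative to all genes. The call was lost without WT replicate 1 (adjusted p = 0.33), without WT replicate 2 (adjusted p = 0.36), when the filter was dropped (0.052), with the replicate block (0.056) and under 3 other scalings, in a range of 0.0015 to 0.36 over the alternatives. Gclc, the catalytic subunit, stood at 24.8 and 23.3 FPKM in the WT libraries against 31.6 and 30.8 FPKM with R111A, the opposite direction (log2 fold change 0.36, adjusted p = 0.044). This call, too, was lost without either WT library, with the replicate block and in TPM, where it was 0.04 (adjusted p from 0.002 to 0.84). The subunits thus moved apart by small amounts, both near the threshold.

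The glutathione list had 35 genes in the table and 23 tested, of which 9 were higher and 6 lower past 0.05, with a median log2 fold change of 0.14 that turned to -0.17 in TPM. Gstp2 and Mgst3, counted among the 9, had a WT mean under 1 FPKM and passed the filter only through R111A, so they could only be found higher. Of the genes averaging 5 FPKM or more, those past both thresholds were Gpx1 and 3 others. They were Mgst2, a microsomal transferase (log2 fold change 1.58, adjusted p = 8.4e-05), and Esd, an esterase that releases glutathione from its formaldehyde adduct (log2 fold change 1.31, adjusted p = 0.00014), both higher, and Gstp1, a further transferase, which was lower, at 204 and 216 FPKM in the WT libraries against 114 and 82.2 FPKM with R111A (log2 fold change -1.11, adjusted p = 0.00075). Its near-identical copy Gstp2 went from 0.72 and 0.00 FPKM to 2.28 and 3.58 FPKM, and reads could be split between them. Gsto1, Hagh and Ggct were lower too (log2 fold changes -0.54, -0.56 and -0.66), calls lost without either WT library, with adjusted p up to 0.14, 0.13 and 0.15. The call of Ggct was lost under 7 alternatives in all, among them no filter, 3 other scalings and the fit without R111A replicate 1. Gsr, which regenerates glutathione, and Gss, which completes its synthesis, did not pass (log2 fold changes -0.21 and 0.14, adjusted p = 0.21 and 0.40). Slc7a11, the cystine importer, stayed under 0.42 FPKM in each library and was not tested. In TPM the list had 6 higher and 9 lower genes, and without WT replicates 1 and 2 in turn it had 6 and 2, then 5 and 2, in a range of 5 to 12 higher and 2 to 9 lower over the alternatives.

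Since Gpx1, Gpx4 and Txnrd1 are selenoproteins, the genes of selenocysteine insertion were read beside them. Of 9 tested, 4 were lower and 0 higher past 0.05, with a median of -0.25. Trnau1ap, which binds the selenocysteine tRNA, stood at 100.3 and 116 FPKM in the WT libraries against 47.5 and 46.8 FPKM with R111A (log2 fold change -1.18, adjusted p = 0.00017), and Sephs2, which makes the selenium donor, did not pass (log2 fold change -0.14, adjusted p = 0.40). The other selenoproteins, 12 tested, had 5 higher and 5 lower genes and a median of 0.22, or -0.09 in TPM. Selenoh fell from 74.0 and 71.7 FPKM to 19.6 and 14.6 FPKM (log2 fold change -2.04, adjusted p = 2.9e-05), while Selenop rose from 33.0 and 36.6 FPKM to 104.8 and 100.7 FPKM (log2 fold change 1.54, adjusted p = 3.8e-05) and Selenok by 1.24 (adjusted p = 0.00011). The other selenoproteins went both ways beside the fall of Gpx1, and a difference between them and Gpx1 was not tested. In TPM the 2 lists had 0 higher and 8 lower genes and 3 higher and 5 lower genes. Without WT replicate 1 the insertion genes had 1 lower gene and the other selenoproteins 3 higher and 4 lower, and without WT replicate 2 they had 1 lower gene, and 5 higher and 3 lower. Over the alternatives the ranges were 0 to 1 higher and 1 to 8 lower for the insertion genes, and 3 to 7 higher and 3 to 5 lower for the other selenoproteins.

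For superoxide, the mitochondrial enzyme fell and the cytosolic one did not. Sod2 (gene ID 20656, chr17:13007839-13018119), the manganese enzyme of the mitochondrial matrix, stood at 25.5 and 22.7 FPKM in the WT libraries against 11.6 and 13.6 FPKM with R111A. The groups were well apart, with replicates close to each other. The mean in R111A was 0.523 times that in WT, with a log2 fold change of -0.89 (95% interval -1.22 to -0.55, SE 0.15, adjusted p = 0.0012), or -0.77 relative to all genes, and the call held under each of the 15 alternatives. Sod1 (gene ID 20655, chr16:90220762-90226333), the cytosolic copper and zinc enzyme and the most abundant of the 10, stood at 803 and 798 FPKM in the WT libraries against 777 and 810.2 FPKM with R111A. Both WT values lay between the R111A values. Its log2 fold change was -0.01 (95% interval -0.28 to 0.26, adjusted p = 0.94), and 0.10 relative to all genes. The sign turned with the scaling and without R111A replicate 1, and TPM gave -0.35 (95% interval -0.62 to -0.08) with an adjusted p of 0.026, where the median of all genes was lower still (adjusted p from 0.026 to 0.98 over the alternatives). Sod1 FPKM was 31.5 and 35.1 times Sod2 FPKM in WT and 67.0 and 59.6 times in R111A.

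In the list of superoxide and peroxide removal, 8 of 14 genes tested were lower and 0 higher past 0.05, with a median of -0.53. Prdx3, the peroxiredoxin of mitochondria, went from 175 and 195 FPKM to 83.4 and 104.6 FPKM (log2 fold change -0.98, adjusted p = 0.00082), and cytosolic Prdx2 by -0.94 (adjusted p = 0.00045), a pair named after their values were seen. Ucp2, a mitochondrial carrier linked to superoxide, had a log2 fold change of -1.11 (adjusted p = 0.0027). Cat, which breaks down hydrogen peroxide in peroxisomes, stood at 18.0 and 16.7 FPKM in the WT libraries against 14.4 and 10.6 FPKM with R111A (log2 fold change -0.45, adjusted p = 0.047). Its call was lost without WT replicate 1, without WT replicate 2 and without R111A replicate 2 and under 4 other alternatives (adjusted p from 0.0015 to 0.30). In TPM 12 of the 14 genes were lower, and without R111A replicate 2 and under 3 other scalings there were 7 lower and 2 higher.

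Hmox1 was the other gene that rose. Hmox1 (gene ID 15368, chr8:75093618-75100593), haem oxygenase, which breaks haem down to biliverdin, iron and carbon monoxide and is induced through NRF2 when the repressor BACH1 lets go, stood at 3.07 and 3.66 FPKM in the WT libraries against 5.78 and 6.83 FPKM with R111A. Its level was the lowest of the 10 genes in both groups, and the groups did not overlap. The mean in R111A was 1.87 times that in WT, with a log2 fold change of 0.74 (95% interval 0.39 to 1.09, SE 0.15, adjusted p = 0.0038), or 0.86 relative to all genes and 0.89 relative to them in TPM. Without WT replicate 1 the adjusted p was 0.058, the highest of the alternatives, which ranged from 9.6e-05. Hmox2, the constitutive form, stood at 88.7 and 86.9 FPKM in the WT libraries against 73.5 and 70.0 FPKM with R111A. It did not pass in FPKM (log2 fold change -0.29, adjusted p = 0.079) and was lower in TPM (-0.62, adjusted p = 0.0016). The inducible form remained the minor one.

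Macrophages of the spleen also make much Hmox1, and red cell precursors carry haem, so their markers were read beside it. The cells had been enriched with beads that remove other cell types and then sorted by FACS. The 19 myeloid markers summed to 6.69 and 4.10 FPKM in WT and 20.4 and 15.3 FPKM in R111A. Of the 4 tested, 3 rose and 0 fell, with Cd68 the most abundant at 1.54, 0.78, 8.89 and 6.81 FPKM. C1qa, C1qb and S100a9 were at 0 in all 4 libraries, and Cd163, Marco and Vcam1, which mark the macrophages richest in Hmox1, were at or under 0.13 FPKM. In the same list, Adgre1 went from 0.04 FPKM in both WT libraries to 0.77 and 1.04 FPKM in R111A. Itgam went from 0.00 and 0.03 FPKM to 0.54 and 0.39 FPKM, while Mpeg1 went from 0.70 and 0.73 FPKM to 0.37 and 0.33 FPKM. These genes were not tested. The 10 erythroid markers summed to 0.66 and 1.00 FPKM in WT and 13.5 and 13.3 FPKM in R111A. Most of the sum in R111A was Hba-a1, the 1 gene tested and higher, at 0.66, 0.44, 12.3 and 11.7 FPKM over the 4 libraries. Hba-a2 (a near-identical copy of Hba-a1), Hbb-bs and Slc4a1 were at 0, and Hbb-bt stood at 0.00, 0.26, 0.41 and 1.19 FPKM. B cell markers summed to 2.23, 1.06, 5.32 and 4.60 FPKM, led by Cd79a, with 2 of 2 tested higher (1 in TPM) and none at 0 in all 4 libraries. NK cell markers summed to 1.93, 1.22, 19.2 and 18.2 FPKM, led by Klrd1 and Eomes, the 2 genes tested and both higher, while Ncr1 and Klrb1c stayed at or under 0.30 FPKM. Platelet markers summed to 0.28, 0.31, 9.99 and 10.3 FPKM, nearly all Itga2b, the 1 gene tested and higher, with Pf4 and Gp9 at 0. CD8 T cell markers summed to 7.31, 6.76, 3.88 and 4.46 FPKM, led by Cd8b1, which fell. Lyz2 and Fcer1g among the myeloid markers, and Hba-a1, Cd79a, Cd79b, Klrd1, Eomes and Itga2b, had a WT mean under 1 FPKM and passed the filter only through R111A. They could only be found higher, and their counts describe levels without testing a direction. The part of these cells in the change of Hmox1 was not tested.

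Of 16 genes tested in the haem and iron list, 7 were lower and 3 higher past 0.05, with a median of -0.25. Blvrb, which acts after haem oxygenase, rose with Hmox1 from 2.30 and 2.12 FPKM to 4.75 and 3.64 FPKM (log2 fold change 0.69, adjusted p = 0.0062), a gene named after its values were seen. Ftl1, the ferritin light chain that stores the iron, had a log2 fold change of 0.52 (adjusted p = 0.024), lost in TPM, with no filter and without WT replicate 2 (adjusted p from 0.0032 to 0.27), and Fth1 overlapped between the groups (log2 fold change 0.22, adjusted p = 0.29). The 2 genes of the list past both thresholds were lower. Tfrc, the transferrin receptor, fell from 110.2 and 115 FPKM to 23.1 and 39.0 FPKM (log2 fold change -1.87, adjusted p = 0.0002), and Slc11a2, an iron transporter, fell by 1.42 (adjusted p = 7.9e-05). Without WT replicate 1 the list had 5 lower and 2 higher genes, and without WT replicate 2 it had 4 and 2, in a range of 4 to 9 lower and 1 to 4 higher over the alternatives.

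The regulators of NRF2 were read beside its targets. Nfe2l2, which encodes NRF2, stood at 16.6 and 16.3 FPKM in the WT libraries against 23.7 and 20.3 FPKM with R111A (log2 fold change 0.40, adjusted p = 0.042), and Keap1 stood at 22.8 and 24.5 FPKM in the WT libraries against 16.8 and 13.5 FPKM with R111A (log2 fold change -0.61, adjusted p = 0.0088). Bach1, the repressor of Hmox1, rose along with Hmox1, from 4.36 and 4.08 FPKM to 10.9 and 12.6 FPKM (log2 fold change 1.29, adjusted p = 0.00017), and so did Maff, a small MAF partner of both factors, from 6.68 and 7.52 FPKM to 30.7 and 26.1 FPKM (log2 fold change 1.86, adjusted p = 3.0e-05). Of 11 regulators tested, 4 were higher and 3 lower, with a median of -0.06, beside 21.2% and 32.1% of all genes, and in TPM 2 were higher and 7 lower. Without either WT library in turn, 2 were higher and 0 lower, and Nfe2l2 and Keap1 were no longer called. Nfe2l2 also lost its call in TPM and with no filter (adjusted p from 0.0056 to 0.67).

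The NRF2 target genes, which include Hmox1, Gclm, Txn1, Txnrd1 and Prdx1, went both ways. Of 20 tested, 7 were higher and 8 lower past 0.05, beside 21.2% and 32.1% of all genes, with a median of -0.20 against -0.12. The largest rises were those of Epha2, Srxn1 and Nqo1. Epha2 and Nqo1, counted among the 7 higher, had a WT mean under 1 FPKM and passed the filter only through R111A. A fall could not have been found for them. Nqo1, a quinone reductase often read as a gauge of NRF2 activity, stood at 0.40 and 0.45 FPKM in the WT libraries against 2.38 and 2.34 FPKM with R111A (log2 fold change 1.24, adjusted p = 0.00013). Epha2 went from 0.11 and 0.05 FPKM to 11.03 and 9.07 FPKM (log2 fold change 3.35, adjusted p = 3.4e-06). At the bottom stood Pgd, Tkt and G6pdx, enzymes of the pentose phosphate pathway, with Txn1 next to them. In TPM 5 targets were higher and 12 lower, and without either WT library in turn 5 were higher and 3 lower, in a range of 4 to 8 and 3 to 12 over the alternatives.

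The pentose phosphate pathway supplies the NADPH that Txnrd1 and Gsr spend. Of 16 genes tested in the NADPH list, 14 were lower and 1 higher past 0.05, with a median of -0.71. G6pdx, the first and limiting enzyme, stood at 53.2 and 46.7 FPKM in the WT libraries against 32.2 and 30.9 FPKM with R111A (log2 fold change -0.65, adjusted p = 0.004), a call lost without WT replicate 1 (adjusted p = 0.11, the highest, the lowest being 0.00011). Pgd, the next NADPH-making step, went from 92.8 and 85.2 FPKM to 38.5 and 35.3 FPKM (log2 fold change -1.25, adjusted p = 0.00011). Idh2, a mitochondrial source, fell by 1.47 (adjusted p = 0.00014), Tkt by 1.11 (adjusted p = 0.0007) and Mthfd2 by 1.04 (adjusted p = 0.00047). Idh1, the cytosolic relative of Idh2, was the 1 that rose, from 1.08 and 0.78 FPKM to 3.82 and 3.39 FPKM (log2 fold change 1.26), and with a WT mean of 0.93 FPKM it passed the filter only through R111A. Without WT replicate 1, 9 were lower, and without WT replicate 2, 10 were, in a range of 9 to 15 lower and 0 to 1 higher over the alternatives.

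**Figure D3:**
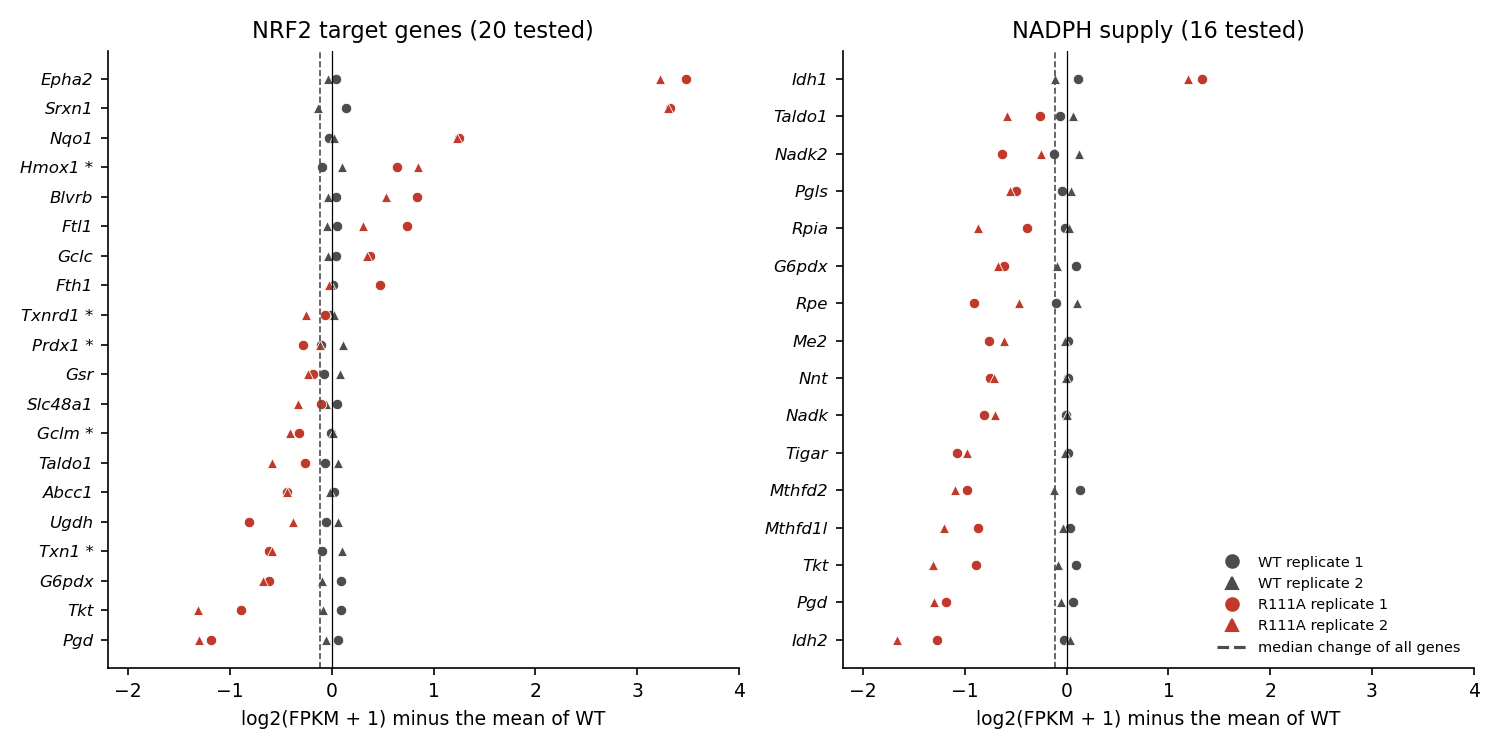
Log2(FPKM + 1) of each library minus the mean of WT for the 20 NRF2 target genes and the 16 NADPH genes tested, in order of change, with circles and triangles for replicates 1 and 2 and asterisks on genes of the 10. The targets spread to both sides, from Epha2 at 3.35 to Pgd at -1.25, while in the NADPH list Idh1 alone lies to the right.

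In the 4 remaining lists, Gpx4, Gpx1 and Sod2 stand beside genes of related use. Of 9 genes of lipid peroxide and ferroptosis control, Gpx4 among them, 3 were lower and 0 higher past 0.05, with a median of -0.40 (6 lower in TPM, 5 lower with the replicate block, and 5 lower and 2 higher with the length and GC correction or without R111A replicate 2). Cisd1, a mitochondrial iron-sulfur protein, stood at 51.7 and 46.5 FPKM in the WT libraries against 18.3 and 18.6 FPKM with R111A (log2 fold change -1.37, adjusted p = 7.6e-05). Of 7 sestrin and p53-linked genes, Gpx1 and Sod2 among them, 4 were lower and 2 higher, with a median of -0.44. Without Gpx1 and Sod2, 2 of 5 were lower and 2 higher, with a median of 0.26. Of the sestrins, Sesn2 and Sesn1 rose by 1.38 (adjusted p = 0.00026) and 1.18 (adjusted p = 0.00017), while Sesn3 was lower by 0.44 (adjusted p = 0.025), a call lost without either WT library and under 2 other scalings (adjusted p from 0.0009 to 0.35). Tigar fell like Gpx1 and Sod2, by 1.03 (adjusted p = 0.00042). Of 4 oxidase genes tested, which make reactive oxygen, 1 was higher and 1 lower, with a median of -0.24. Over the alternatives 0 to 2 were higher and 1 to 2 lower, with 2 lower without WT replicate 1 and without R111A replicate 1 among others, and Cybb, the catalytic subunit of the phagocyte oxidase, stayed at or under 0.42 FPKM. In the metallothionein list Mt1 and Mtf1, a regulator of these genes, were tested and did not pass (log2 fold changes 0.29 and -0.07, median 0.11, or -0.11 in TPM). Mt2 was at or under 0.68 FPKM. Without R111A replicate 1, Mt1 was called higher, but it passed the filter only through R111A replicate 2 (0.95, 0.47, 0.24 and 2.45 FPKM over the 4 libraries), so no direction is read from it.

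**Figure D4:**
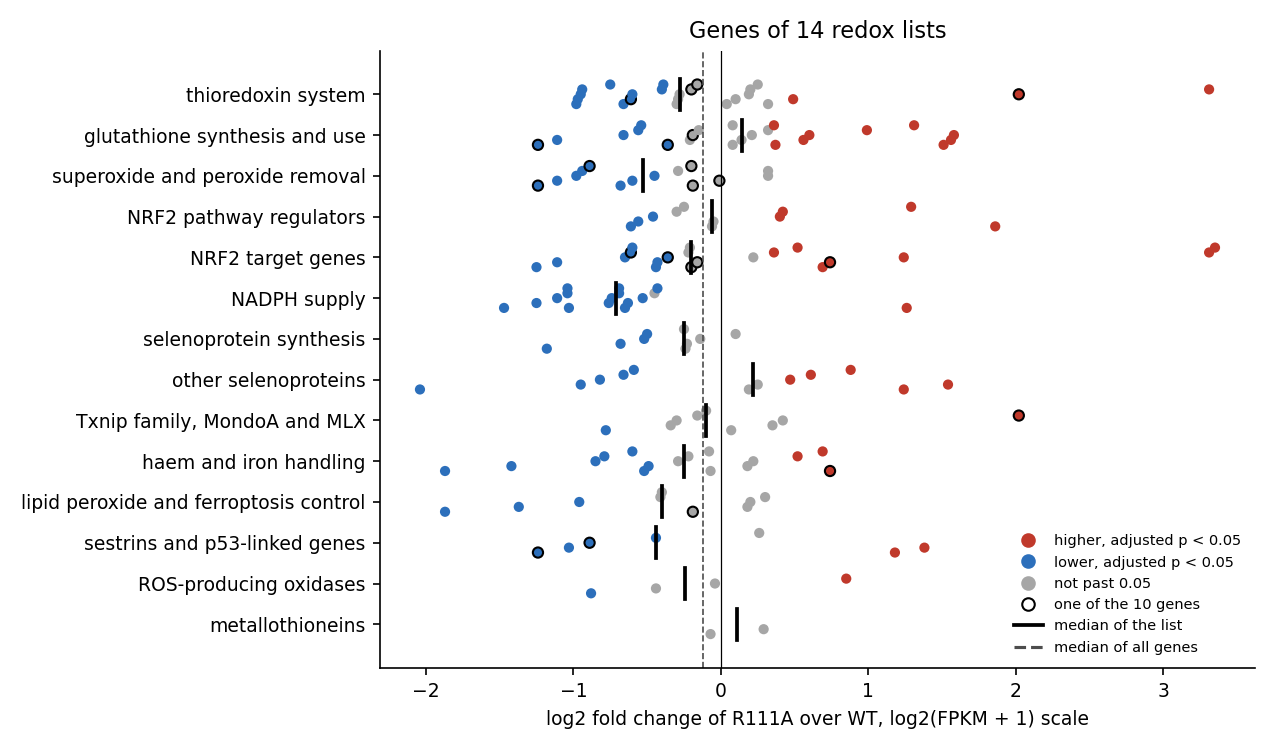
Log2 fold change of R111A over WT for each gene tested in the 14 lists, coloured by direction where the adjusted p was under 0.05, with black outlines on the 10 genes, a bar at the median of each list and a dashed line at the median of all genes (-0.12). The NADPH list has the lowest median (-0.71), and Srxn1 at 3.31 and Txnip at 2.02 lie far to the right in the thioredoxin list.

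The pattern most like that of Gpx1 over the 4 libraries was that of Tmem248, Atp23 and Mars1, at Euclidean distances of 0.030, 0.036 and 0.045. Mars1, a methionyl-tRNA synthetase, stood at 98.5 and 97.8 FPKM in the WT libraries against 43.8 and 40.4 FPKM with R111A. These genes were picked for their likeness, and likeness in 4 libraries of 2 groups says little beyond a similar fold change.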

How the data were processed

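RNA-seq of 2 WT and 2 R111A libraries was used. The authors selected polyA RNA, aligned reads to mm10 with Bowtie2 (2.4.4), estimated expression with RSEM (1.2.28) and deposited 1 table of FPKM for 16142 genes, with 0 further columns of per-sample values. Genes averaging 1 FPKM or more were compared on log2(FPKM + 1) in limma (3.58.1, R 4.3.3; lmFit, then eBayes with a trend) and adjusted by Benjamini-Hochberg, and the steps were first run on simulated data. Other steps used Python 3.11.15, numpy 2.4.6, pandas 2.3.3 and matplotlib 3.10.9. The genes, the 14 pathway lists and the 9 marker lists were chosen with earlier results of these data known. The genes named were the 10 genes, Zc3h12a, a set of regulators and rate-limiting genes, up to 4 per list with the largest change past both thresholds and a mean of at least 5 FPKM, and the 3 genes most like each of the 2 most changed of the 10. Other genes named were chosen after their values were seen. The alternatives were pseudocounts of 0.1 and 5 FPKM, no filter or a filter at 5 FPKM, TPM, median-of-ratios factors, quantile normalization, a loess correction for transcript length and GC content (span 0.5, available for 99.4% of genes tested), the replicate block, eBayes robust or without trend, and each library left out. A group left with 1 library was assumed to vary like the other. Gene positions and promoters are from RefSeq on GRCm38.p6, the assembly of mm10.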

Additional observations from a re-analysis of the deposited data

How the results depend on the processing

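Txnip, Gpx1 and Sod2 kept direction and call under all 15 alternatives, Txn1 under 14 and Gclm under 8. Hmox1 kept its call under 13 of 14 and was not tested with a filter at 5 FPKM, which left 1 higher gene of the 10. Quantile normalization turned Txnrd1 to 0.09, Gpx4 to 0.05 and Sod1 to 0.09, and Sod1 was 0.08 with median-of-ratios factors and 0.14 with the length and GC correction, all far from the threshold. Rescaling to TPM gave 8 lower genes of the 10 and 1335 higher and 5096 lower of all genes, since the FPKM sums differ between the groups. Leaving out 1 library at a time gave 1 to 2 higher and 2 to 5 lower genes of the 10, 1413 to 2539 higher and 1937 to 3790 lower of all genes, and log2 fold changes of -0.04 to 0.02 for Sod1. The median of the 10 minus that of all genes was -0.08, against 0.02 after quantile normalization and -0.19 to 0.00 with a library left out, and the median of all genes was 0.00 with no filter. Past both thresholds, 838 higher and 820 lower genes became 386 and 402 with a pseudocount of 5 FPKM, 521 higher with a filter at 5 FPKM and 1749 lower in TPM. With the replicate block, 2 genes of the 10 were higher and 3 lower, and 2236 higher and 3358 lower of all genes. Deviations of same-numbered libraries correlated at 0.111, and the libraries share only a number. Other causes were not tested. No counts were used, so the error of low values such as Hmox1 is not known beyond the replicates.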
